A study of Homo sapiens
Mus musculus with 17 samples.

Results

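Mouse reads from 17 xenograft tumours were examined for 10 host genes, 5 of fat and 5 of skeletal muscle. They were *Adipoq*, *Plin1*, *Cidec*, *Cfd* and *Lep* for fat and *Acta1*, *Actn3*, *Ckm*, *Myh4* and *Tnnt3* for muscle, taken by symbol, and all 10 of them were present among the 23337 mouse genes measured. They were chosen as markers of tissue lying next to a tumour. Where in a tumour their RNA came from was not measured, so they are called fat and muscle genes here.

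Fat cells store triglyceride in 1 large droplet and secrete hormones into the blood. Fast skeletal muscle fibres contract by the sliding of actin and myosin filaments and recover their ATP from phosphocreatine. In mouse skin, a layer of fat and a thin sheet of muscle lie beneath the dermis. The site at which the tumours were grown is not given in the sources used here. In bulk RNA, fewer cells of a type and less RNA per cell cannot be told apart.

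The xenografts came from the human bladder cancer line VM-CUB-1, which the series text calls resistant to nintedanib, and grew in Hsd:Athymic Nude-Foxn1nu mice, an outbred strain that lacks a thymus and so most T cells. All mice were treated for 7 days, in groups given alpelisib at 25 mg/kg with nintedanib at 40 mg/kg (combination, 4 tumours), alpelisib alone at 25 mg/kg (4 tumours), nintedanib alone at 40 mg/kg (5 tumours), or vehicle, which was 0.5% methylcellulose with 0.1% Tween80 (4 tumours). Alpelisib inhibits the alpha isoform of phosphoinositide 3-kinase, and nintedanib inhibits receptors of VEGF, FGF and PDGF. Of the 5 nintedanib tumours, the titles name 3 responders and 2 non-responders, whereas the series text gives 2 responders and 3 non-responders. The titles were followed, so every value below for these groups rests on them. The labels do not say whether tumours came from separate mice, and p-values measure only the spread between these samples.

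The libraries held 2271764 to 7438823 mouse reads (median 5084126) and 7429753 to 25654879 human reads (median 20312801). Ribosomal transcripts (*Rn45s* and *Lars2*) took 1.73% to 72.9% of the mouse reads. Vehicle 3 stood apart with 72.9%, which left it 1376733 other mouse reads, the fewest of the 17. Levels are normalized counts, which are reads divided by the library's size factor and not by gene length, so genes are not ranked against each other. A count of 3 reads corresponded to 1.37 normalized counts in vehicle 4, the most sensitive library, and to 6.89 in vehicle 3, the least sensitive. Intervals and floors given below cover counting error only.

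*Adipoq*, which encodes the fat hormone adiponectin, had 0, 14.1, 0 and 4.99 normalized counts in combination tumours 1 to 4, and 0, 0, 1.18 and 0 in alpelisib tumours 1 to 4. It had 0, 5.16 and 27.3 in nintedanib responders 1 to 3, 246.2 and 286.6 in nintedanib non-responders 1 and 2, and 15.2, 46.4, 0 and 29.6 in vehicle tumours 1 to 4. Both non-responders lay above all 15 other libraries, and the 4 alpelisib libraries together held 1 read of the gene. *Cfd*, which encodes adipsin, a complement protease secreted by fat cells, had more reads and a similar order of libraries (Spearman's rho 0.935, 17 libraries). Its level was 1.86, 92.5, 0 and 3.74 in combination tumours, 6.23, 1.75, 4.72 and 2.43 in alpelisib tumours, 0.677, 10.3 and 158.3 in responders, 1099.9 and 1383.5 in non-responders, and 75.8, 191.8, 0 and 112.2 in vehicle tumours. Vehicle 2, responder 3, vehicle 4, combination 2 and vehicle 1 followed the non-responders, and every alpelisib library lay below them. Human *CFD* reads outnumbered those of mouse *Cfd* in 12 libraries, and human *PLIN1* reads those of mouse *Plin1* in 14. The part of human transcripts in the low levels of these fat genes was not tested.

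*Cidec*, which encodes a protein that helps lipid droplets fuse, had 0.929, 22.1, 0 and 1.25 normalized counts in combination tumours, 7.78, 0.874, 0 and 2.43 in alpelisib tumours, 0.677, 1.15 and 23.4 in responders, 144.8 and 266.1 in non-responders, and 8.27, 40.6, 0 and 41.5 in vehicle tumours. *Plin1*, the coat protein of fat-cell lipid droplets, reached 30.9 and 47.2 in the non-responders and at most 6.84 elsewhere, with 0 in 8 of 17 libraries. *Lep*, the satiety hormone leptin, reached 21.0 and 62.9 in the non-responders and also at most 6.84 elsewhere, with 0 in 8 libraries. In each of the 5 fat genes the 2 non-responders were thus the highest libraries of the series. No read of any fat gene was found in combination 3 or vehicle 3. At their depths 0 reads allow up to 3.69 and 6.89 normalized counts of each gene, so low levels were not detectable there.

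**Figure D1:**
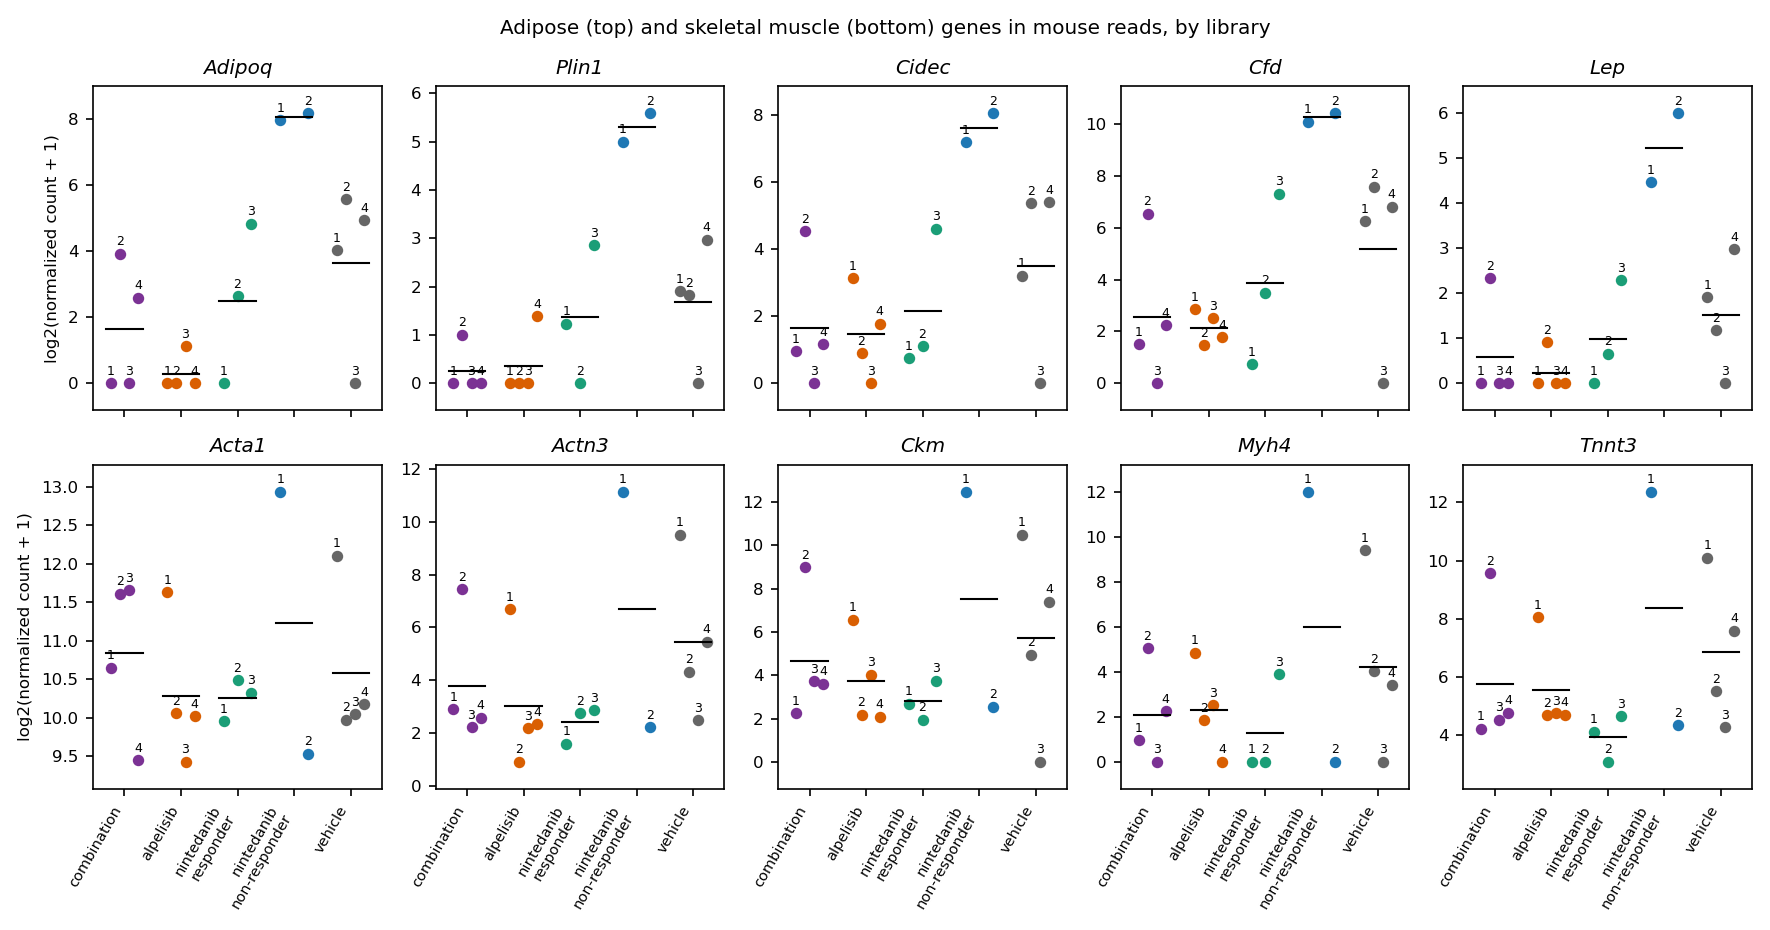
Log2(normalized count + 1) of the 10 genes in mouse reads, with fat genes above and muscle genes below. Each point is 1 tumour library with its replicate number, and each bar is a group mean. In the fat genes both nintedanib non-responders sit at the top, and in the muscle genes only non-responder 1 does. The axes of *Acta1* and *Tnnt3* do not reach 0, because their lowest libraries had 688.7 and 7.46 normalized counts.

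*Ckm*, the muscle creatine kinase, had 3.72, 508.9, 12.3 and 11.2 normalized counts in combination tumours and 93.4, 3.5, 15.3 and 3.24 in alpelisib tumours. It had 5.42, 2.87 and 12.5 in responders, 5726.9 and 4.84 in non-responders, and 1445.8, 29.8, 0 and 168.3 in vehicle tumours. The level was high in 5 libraries, namely non-responder 1, vehicle 1, combination 2, vehicle 4 and alpelisib 1, and below 30 in the other 12. The 2 non-responders, alike in the fat genes, lay far apart here, with non-responder 2 among the low libraries.

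*Myh4*, the myosin heavy chain of the fastest (type 2B) fibres, had 0.929, 32.2, 0 and 3.74 normalized counts in combination tumours and 28.0, 2.62, 4.72 and 0 in alpelisib tumours. It had 0, 0 and 14.0 in responders, 4154.5 and 0 in non-responders, and 687.8, 15.2, 0 and 9.58 in vehicle tumours. *Actn3*, which anchors actin at the Z-disc of fast fibres, had 2261.6 in non-responder 1, 727.7 in vehicle 1, 172.0 in combination 2, 102.7 in alpelisib 1 and 42.9 in vehicle 4. The other 12 libraries had 0.874 to 19.0 of *Actn3*, so it picked out the same 5 tumours as *Ckm*. For *Myh4* the fifth library was vehicle 2 in place of vehicle 4.

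*Tnnt3*, the fast-fibre troponin T, was high in the same 5 libraries as *Ckm*, with 5290.2 normalized counts in non-responder 1, 1094.4 in vehicle 1, 751.3 in combination 2, 263.0 in alpelisib 1 and 192.0 in vehicle 4. Unlike *Ckm* and *Myh4*, it never reached 0, and the other 12 libraries held 7.46 to 44.4. In the human reads of the same libraries *TNNT3* had 120.4 to 660.2 normalized counts, and *TNNT3* reads outnumbered those of *Tnnt3* in 14 of the 17. The part of human transcripts in the low *Tnnt3* level was not tested.

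*Acta1*, the skeletal muscle actin, behaved differently from the other 4 muscle genes. It had 1606.3, 3124.9, 3231.6 and 698.0 normalized counts in combination tumours, 3170.2, 1069.2, 688.7 and 1041.5 in alpelisib tumours, 994.4, 1433.1 and 1283.6 in responders, 7837.6 and 741.3 in non-responders, and 4407.8, 1006.4, 1056.4 and 1155.4 in vehicle tumours. Non-responder 1 and vehicle 1 were again the 2 highest. Combination 3, which had 12.3 of *Ckm* and 0 of *Myh4*, ranked next, and the lowest library still had 688.7.

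Actin genes are alike in sequence, so the reads counted for *Acta1* are uncertain. Combination 3 also had the highest mouse *Actb* (17551.6 against 9207.7 to 15223.6 in the other 16 libraries) and the highest human *ACTB* (66517.1), the cytoplasmic actin. Human *ACTA1* had 502.2 normalized counts in non-responder 1, 293.6 in vehicle 1, 158.4 in combination 2, 54.8 in vehicle 4 and 49.7 in alpelisib 1. In the other 12 libraries it had at most 7.84, and 0 in combination 3. Its 5 highest libraries were thus those of *Ckm*. Mouse *Acta1* shared 4 of these 5, with combination 3 in place of vehicle 4. Human *MYH4* also had the same 5 highest libraries as mouse *Ckm*, from 173.2 in non-responder 1 to 6.06 in alpelisib 1. Whether reads were shared between actin genes or between the 2 genomes was not tested.

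Fat and muscle genes went together in part. Summed over the 5 fat genes, non-responder 2 had 2046.3 normalized counts and non-responder 1 had 1542.8, followed by vehicle 2 with 282.6, responder 3 with 219.1 and vehicle 4 with 197.0. Summed over the muscle genes without *Acta1*, non-responder 1 had 17433.2, vehicle 1 had 3955.7, combination 2 had 1464.4, alpelisib 1 had 487.1 and vehicle 4 had 412.6. Of the 5 libraries highest for fat, only non-responder 1 and vehicle 4 were also among the 5 highest for muscle. Of the 7 libraries highest for fat, 6 were also among the 7 highest for muscle, and the exceptions were non-responder 2 and alpelisib 1. The overlap thus depends on the cutoff, and responder 3, ranked 7 for muscle with 56.9, lay close to alpelisib 3, ranked 8 with 49.5. Non-responder 2, first for fat, ranked 14 of 17 for muscle with a sum of 27.8. Alpelisib 1, with a fat sum of only 14.0, ranked 4 for muscle. As a share of mouse reads without *Rn45s* and *Lars2*, the fat genes reached 0.0608% in non-responder 2 (95% exact binomial interval 0.0579% to 0.0637%), and all 5 muscle genes reached 0.76% in non-responder 1 (0.749% to 0.77%).

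**Figure D2:**
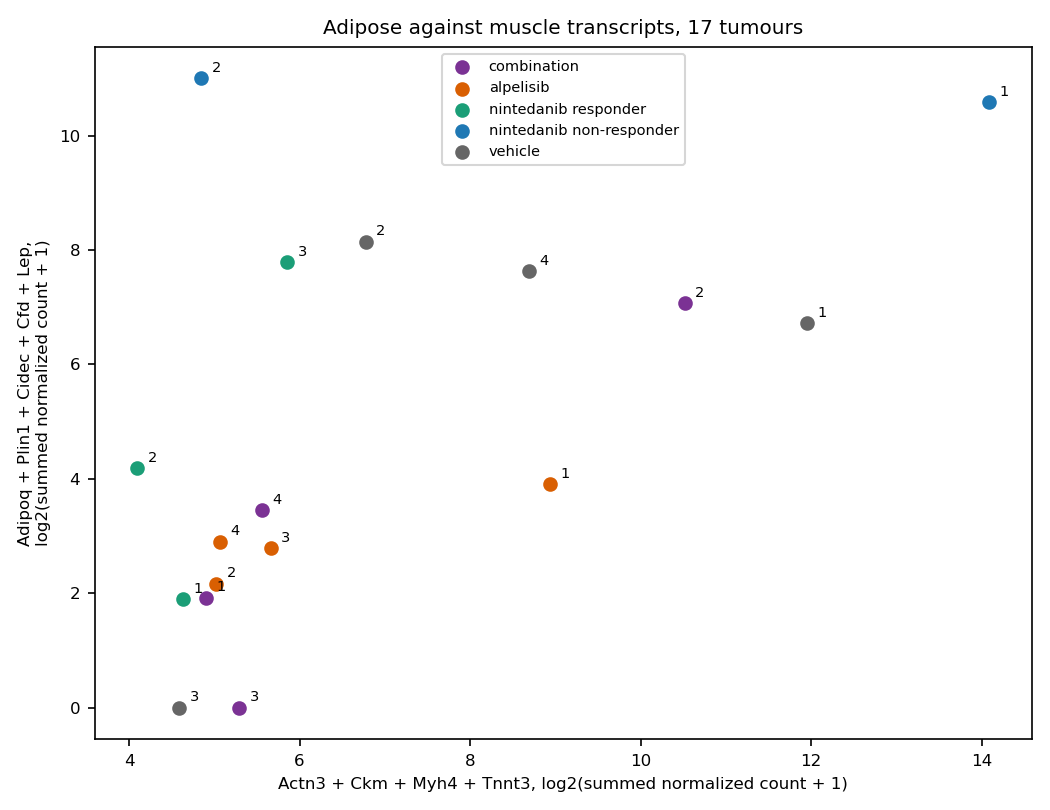
Summed level of the 5 fat genes (vertical) against the summed level of *Actn3*, *Ckm*, *Myh4* and *Tnnt3* (horizontal), both as log2(summed normalized count + 1), for 17 tumours. Each point is 1 library with its replicate number. Non-responder 2 lies high for fat at a muscle sum of 27.8, non-responder 1 lies high for both, and alpelisib 1 has muscle reads with a fat sum of 14.0.

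Correlations over the 17 libraries describe the same relation, and since the libraries share depth and scaling they carry no test. On the log2 scale, pairs of fat genes had Pearson's r of 0.869 to 0.968 (10 pairs), and pairs of muscle genes without *Acta1* had 0.922 to 0.964 (6 pairs). Pairs that included *Acta1* reached 0.727 to 0.822. Fat and muscle genes paired with each other had 0.172 to 0.605 (25 pairs, median 0.464). By Pearson's r, the fat genes and the muscle genes without *Acta1* therefore each formed a tight set. The link between fat and muscle genes was positive but looser. Spearman's rho, which rests less on the highest libraries, went as low as 0.759 for fat pairs and 0.676 for muscle pairs without *Acta1*. It went as low as 0.353 for pairs with *Acta1* and 0.0305 for fat with muscle.

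Among 11152 genes compared, the pattern over libraries most like that of *Adipoq* belonged to *Retn* (resistin, a hormone of mouse fat cells, r = 0.928), *Car3* (a carbonic anhydrase abundant in fat and muscle, r = 0.879), *Plin4* (a lipid droplet coat protein, r = 0.842), *Cdo1* (cysteine dioxygenase, r = 0.823) and *Cyp2e1* (a cytochrome P450, r = 0.803). Without the 2 libraries farthest from the median of *Adipoq*, which were the non-responders, these r were 0.852, 0.855, 0.719, 0.615 and 0.701. The genes most like *Ckm* were *Atp2a1* (the calcium pump of fast fibres, r = 0.966), *Mylpf* (a fast myosin light chain, r = 0.965), *Tcap* (telethonin, which binds titin at the Z-disc, r = 0.965), *Mybpc2* (fast myosin-binding protein C, r = 0.954) and *Pvalb* (parvalbumin, the calcium buffer of fast fibres, r = 0.954). Without non-responder 1 and vehicle 1 these r were 0.916, 0.936, 0.932, 0.889 and 0.896.

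*Pvalb* had 3534.6 normalized counts in non-responder 1, 259.1 in vehicle 1, 119.7 in combination 2, 26.4 in vehicle 4 and 9.34 in alpelisib 1. *Mylpf* had 7822.7, 2629.8, 1677.6, 450.5 and 470.0 in the same order of libraries. Non-responder 1 thus led combination 2 in both genes, and by more in *Pvalb*. Of 23 further fast skeletal muscle genes, 18 had the same 5 highest libraries as *Ckm* (78.3%), against 63 of 11831 genes tested (0.532%). Because *Ckm* and this list were both chosen as muscle genes, the count is a description.

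The myosin heavy chains showed that the muscle reads were not alike in the 5 tumours. *Myh4*, *Myh1* and *Myh2* encode the chains of type 2B, 2X and 2A fibres, *Myh7* that of slow fibres, and *Myh3* and *Myh8* the embryonic and perinatal chains, which also appear in regenerating fibres. These genes, other than *Myh4*, *Myh3* and *Myh8*, were picked out after their values were seen. Myosin heavy chain genes alike in sequence may share reads, which was not tested. *Myh4* made up 94.5% of the 3553 reads of these 6 genes in non-responder 1 (exact 95% interval 93.7% to 95.2%) and 41.7% of 1196 reads in vehicle 1 (38.9% to 44.6%). It made up 3.08% of 1040 reads in combination 2 (2.11% to 4.32%), 4.8% of 375 in alpelisib 1 (2.87% to 7.48%) and 3.99% of 526 in vehicle 4 (2.49% to 6.04%). The shares of non-responder 1 and vehicle 1 thus lay apart from each other and from the other 3 by more than counting error.

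*Myh1* was the main chain in combination 2, with 68.6% (65.6% to 71.4%), and was as frequent as *Myh4* in vehicle 1, with 41.0% (38.2% to 43.8%). *Myh2* was the main chain in vehicle 4, with 50.8% (46.4% to 55.1%). In alpelisib 1 the embryonic *Myh3* came first with 37.9% (32.9% to 43.0%), and *Myh8* added 12.0% (8.89% to 15.7%). In the other 4 libraries *Myh3* made up 0.197% to 7.22% and *Myh8* 1.49% to 2.79%. The slow chain *Myh7* gave at most 0.334% in any of the 5.

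**Figure D3:**
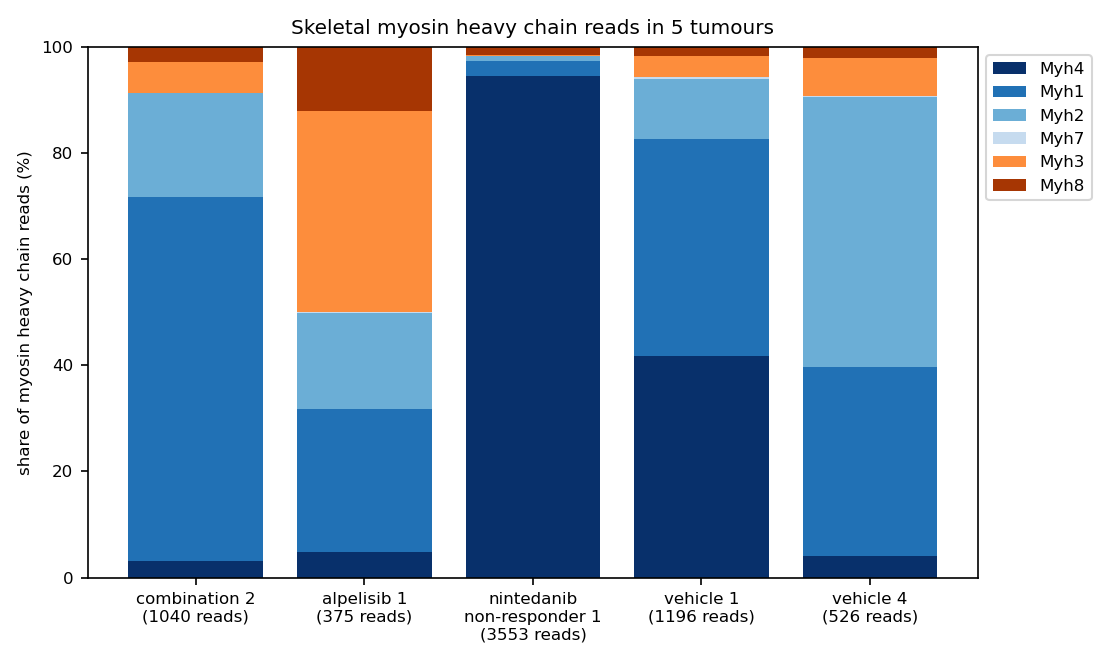
Share of reads (percent) of 6 skeletal myosin heavy chain genes in the 5 tumours with the most *Ckm*, with the reads behind each bar under its name. Blue shades are adult chains and orange shades the embryonic (*Myh3*) and perinatal (*Myh8*) chains. *Myh4* fills 94.5% of the bar of non-responder 1 and 3.08% to 41.7% of the others.

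Genes of slow and of forming muscle split the same tumours in another way. *Csrp3*, a Z-disc protein of slow fibres, had 172.0 normalized counts in combination 2, 90.3 in alpelisib 1, 62.0 in vehicle 1 and 42.4 in vehicle 4, but 0 in non-responder 1. *Myog* (myogenin), a transcription factor of muscle cells as they fuse into fibres, had 43.2, 76.3, 44.1 and 9.12 in these 4 libraries, and also 0 in non-responder 1. For both genes, 0 reads in non-responder 1 allow up to 3.71 normalized counts. The library with the most *Ckm* and *Myh4* thus showed neither gene, and 4 libraries with less *Ckm* showed both.

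*Mybpc1*, the slow-type myosin-binding protein C, was seen in all 5, with 286.7 in vehicle 1, 141.8 in combination 2, 79.4 in alpelisib 1, 57.0 in vehicle 4 and 53.2 in non-responder 1. *Actc1*, an actin of heart and of young muscle fibres, had 112.1 in alpelisib 1, 54.4 in non-responder 1 and 4.1 to 20.7 in the other 3. Summed over the slow muscle list of 9 genes, these tumours had 563.2 in combination 2, 429.5 in alpelisib 1, 70.5 in non-responder 1, 595.4 in vehicle 1 and 156.9 in vehicle 4. For the list of 10 genes of satellite cells and regenerating muscle, alpelisib 1 had the highest sum of the series, 535.4, and the other 4 tumours had 197.1 in combination 2, 190.5 in non-responder 1, 277.0 in vehicle 1 and 49.7 in vehicle 4. Genes of smooth muscle, a different tissue, gave sums of 1867.6 to 7963.8 in every library and did not separate these 5.

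Skin genes marked 2 of the muscle libraries. *Krt10*, a keratin of the upper epidermis, had 6620.6 normalized counts in alpelisib 1 and 1754.1 in vehicle 4, against 1.23 to 15.6 in the other 15 libraries. *Krt1*, its partner, had 6507.0 and 1723.5, against 0 to 4.99. *Krt71* and *Krt25*, keratins of the hair follicle's inner root sheath, had 760.1 and 581.8 in vehicle 4, and 6.23 and 12.5 in alpelisib 1. *Krt1*, *Krt71*, *Krt25*, *Krt79* (a keratin) and *Lor* (loricrin, of the cornified layer) were picked out after their values were seen.

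Human *KRT1* was present in all 17 libraries, at 111.2 to 1258.6, including the 15 with mouse *Krt1* at most at 4.99. The list's keratins of basal epidermis, *Krt14*, *Krt5* and *Krt15*, were high everywhere (*Krt14* 19034.7 to 149609.2), so the list's summed level does not mark skin. Whether reads of human keratins were counted for these mouse genes was not tested. Of the 13 list genes, 0 stood at 0 in alpelisib 1 and vehicle 4. The other 15 libraries ranged from 1 in responder 1 to 8 in vehicle 3, the least sensitive library. Non-responder 1, with the most muscle RNA, and non-responder 2, with the most fat RNA, both had *Krt1*, *Lor* and *Krt71* at 0. Alpelisib 1 and vehicle 4 rank 4 and 5 for muscle, and the part of skin in their fat and muscle reads was not tested.

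**Figure D4:**
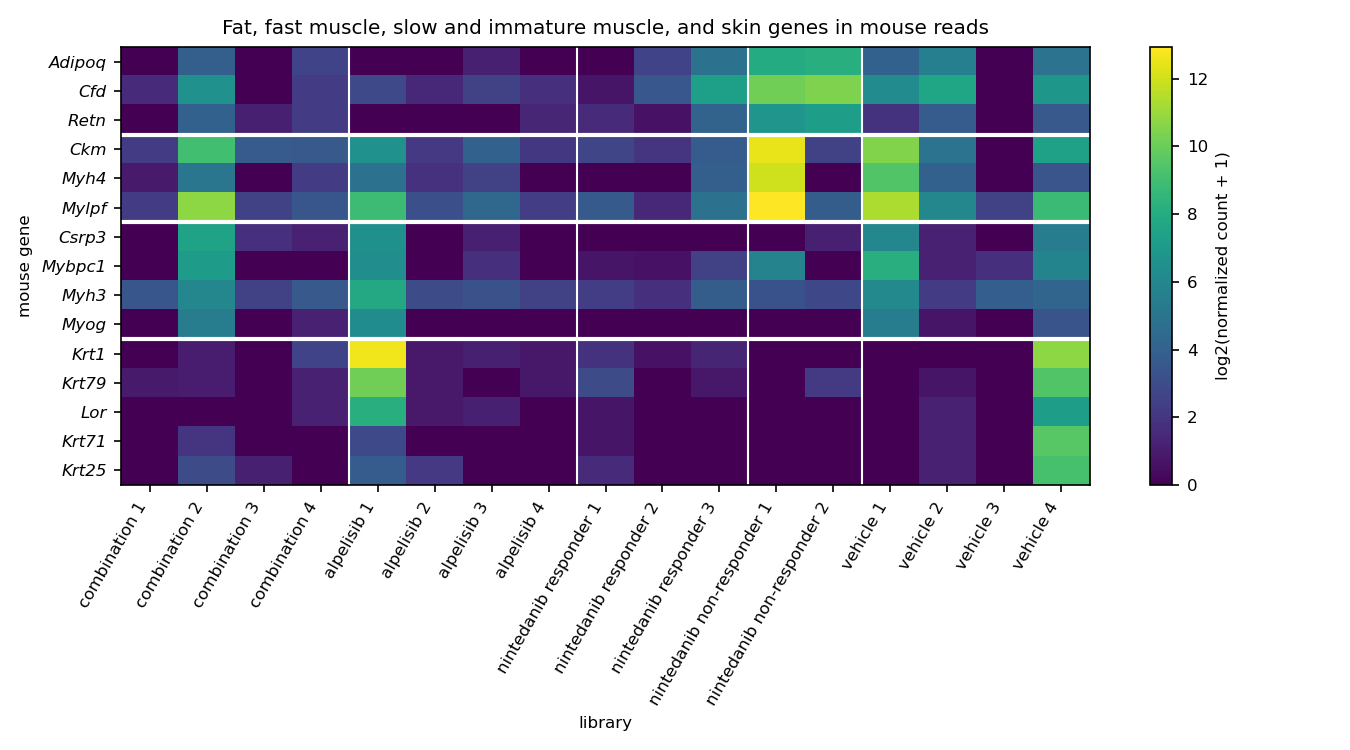
Log2(normalized count + 1), as colour, of fat genes, fast muscle genes, slow or forming muscle genes and skin genes (from top to bottom) in 17 libraries (columns, by group). Non-responder 1 is bright for *Ckm*, *Myh4* and *Mylpf* and at 0 for *Csrp3* and *Myog*. Alpelisib 1 and vehicle 4 are the bright columns for *Krt1*, *Krt79* and *Lor*, and vehicle 4 alone for *Krt71* and *Krt25*.

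Within the fat genes, some proportions were steadier than others. *Cfd* made up 66.7% to 86.8% of the reads of *Cfd* and *Adipoq* in the 8 libraries with at least 20 such reads. In non-responders 1 and 2 it made up 81.7% (exact 95% interval 79.3% to 84.0%) and 82.8% (80.7% to 84.8%), against 80.5% in vehicle 2 (76.2% to 84.4%) and 79.1% in vehicle 4 (74.2% to 83.5%). These intervals overlap although the levels differed several-fold.

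*Cidec*, set against *Adipoq* in the same way, varied more. It made up 37.0% in non-responder 1 (31.7% to 42.6%) and 48.1% in non-responder 2 (43.5% to 52.8%), against 46.7% in vehicle 2 (38.1% to 55.4%) and 58.3% in vehicle 4 (50.2% to 66.2%). *Lep* made up 7.87% of 216 reads of *Lep* and *Adipoq* in non-responder 1 (4.65% to 12.3%) and 18.0% of 289 in non-responder 2 (13.7% to 22.9%). In the vehicle tumours with enough reads, its share was 2.67% of 75 in vehicle 2 (0.325% to 9.3%) and 18.8% of 80 in vehicle 4 (10.9% to 29.0%). For both genes the intervals of the 2 non-responders do not meet, and for *Lep* nor do those of the 2 vehicle tumours.

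Of 20 further white fat genes, *Fabp4*, the fatty acid carrier of fat cells, macrophages and capillaries, had 1521.7 and 1249.3 normalized counts in the non-responders, 727.2 in combination 2 and 24.6 to 504.8 in the other 14 libraries. *Retn* had 105.2 and 151.2 in the non-responders and at most 16.4 elsewhere. *Car3* had 1669.0 and 598.6 in the non-responders, against 610.6 in vehicle 1, so that here 1 vehicle library overlapped. *Cebpa* and *Mest*, also among the 4 list genes with the highest means, averaged 430.2 and 265.5 over all 17 libraries. Without the non-responders *Cebpa* averaged 419.1 and *Mest* 285.7, whereas *Retn* fell from 19.0 to 4.5. Not every gene of the white fat list thus followed the non-responders. Its summed level was still highest in them, at 5399.1 and 4652.5, followed by 2535.6 in vehicle 4. Genes of brown fat shared no single order of libraries. *Elovl3*, a fatty acid elongase of brown fat and of sebaceous glands, had 429.5 in alpelisib 1 and 130.9 in vehicle 4, the 2 libraries with skin genes, and 0 to 1.23 elsewhere. *Cox8b*, a subunit of cytochrome oxidase found in muscle and brown fat, had the same 5 highest libraries as *Ckm*, with 68.0 in non-responder 1. *Dio2*, which activates thyroid hormone, shared 0 of these 5 and was highest in combination 3, with 120.6. *Ucp1*, the uncoupling protein that defines brown fat, had at most 2.01 in any library, and is named here after its values were seen.

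Treatment groups were compared with limma on log2(normalized count + 1) over all 17 libraries, with p-values adjusted over 11831 genes by the Benjamini-Hochberg method. Of the 10 genes, 8 reached the mean of 10 normalized counts needed for the test, while *Lep* (mean 6.13) and *Plin1* (mean 5.91) did not. None of the 8 passed an adjusted p of 0.05 in any of the 6 comparisons. Also 0 passed with edgeR and 0 with DESeq2, which gave no adjusted p for 4 to 6 of the 8. The residual spread within groups, an SD of 3.59 on the log2 scale for *Myh4*, 3.53 for *Ckm*, 2.63 for *Cfd* and 1.89 for *Adipoq*, exceeded that of 98.6% or more of all genes, whose median was 0.439. Changes below are log2 fold changes ± SE, and they understate the change of low genes because 1 is added to each value.

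Nintedanib responders against non-responders gave the largest fat gene differences. All 5 fat genes were lower in each of the 3 responders than in either of the 2 non-responders, with no overlap, an order that 8.01% of all genes tested also showed. *Lep* and *Plin1* are not among the genes tested, and the 5 fat genes vary together. The share is therefore a background value and no test of the 5. *Cfd* averaged 56.4 ± 88.4 in responders and 1241.7 ± 200.6 in non-responders (SD, n = 3 and 2), a change of -6.42 ± 1.99. *Adipoq* averaged 10.8 ± 14.5 in responders and 266.4 ± 28.6 in non-responders, a change of -5.58 ± 1.53, and *Cidec* changed by -5.47 ± 1.56. The limma adjusted p was 1 for each of the 3, and 0% of the 11831 genes passed in this comparison. At an unadjusted p under 0.05, limma called 4 of the 8 genes (*Adipoq*, *Cidec*, *Cfd* and *Tnnt3*), against 2.05% of all genes, and edgeR called 8. *Adipoq* reached the minimum mean only through the non-responders (39.8 over all 17 libraries, 9.59 without these 2), and *Cidec* was just inside it without them (10.1), so this count supports nothing about the groups. The limma count was 3 without non-responder 1 and 8 without non-responder 2.

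Without the filter on low means, *Lep* changed by -4.25 ± 0.88 and *Plin1* by -3.93 ± 0.81 between responders and non-responders (limma adjusted p 0.242 each). The muscle genes overlapped between these groups, since non-responder 2 was as low as the responders. *Ckm* changed by -4.72 ± 2.65 and *Myh4* by -4.71 ± 2.73 (limma adjusted p 1 each). Without non-responder 1 these turned to 0.25 and 1.30. *Actn3* and *Acta1* likewise turned, to 0.19 and 0.72, so the direction of these 4 rested on 1 tumour, while *Tnnt3* went to -0.40 from -4.41 ± 1.95 with all libraries.

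Combination against nintedanib alone gave lower fat gene means that overlapped. *Adipoq* averaged 4.77 ± 6.64 in the 4 combination tumours and 113.1 ± 141.1 in the 5 nintedanib tumours, a change of -3.09 ± 1.12 (limma adjusted p 0.584). *Cfd* changed by -3.84 ± 1.46 and *Cidec* by -2.68 ± 1.15 (adjusted p 0.616 and 0.677). The 2 non-responders supplied the high end of the nintedanib group, and nintedanib responder 1, with 0 of *Adipoq*, its low end. Of the 8 genes 0 passed, as did 0% of all genes. At an unadjusted p under 0.05 limma called 3 of the 8, all of them fat genes, against 7.02% of all genes, and edgeR called 2. The limma count was 0 without non-responder 1, 0 without non-responder 2, and 1 without combination 1 or combination 3. *Adipoq* reached the minimum mean only through the nintedanib libraries. In the muscle genes the changes were -1.13 to 0.19, each smaller than its SE. That of *Acta1* (0.19 ± 0.63) turned below 0 when libraries were scaled to total reads without *Rn45s* and *Lars2*.

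Alpelisib against vehicle gave its largest change in *Adipoq*, which averaged 0.295 ± 0.59 in alpelisib tumours and 22.8 ± 19.8 in vehicle tumours (SD, n = 4 each). The change was -3.35 ± 1.18 (limma adjusted p 0.352), and the groups overlapped because vehicle 3 had 0 reads. Without vehicle 3, the library of 72.9% ribosomal reads, the change was -4.56. *Cfd* averaged 3.78 ± 2.07 in alpelisib tumours and 94.9 ± 79.7 in vehicle tumours, a change of -3.02 ± 1.54 (adjusted p 0.49). The alpelisib libraries held 2 to 4 mouse *Cfd* reads each, beside 115 to 207 human *CFD* reads. Of the 8 genes 0 passed, as did 0% of all genes. At an unadjusted p under 0.05 limma called 1 of the 8, *Adipoq*, against 10.6% of all genes, and edgeR called 5. The limma count was 3 without vehicle 3, and 2 without combination 2 or responder 3. The change was below 0 for 8 of 8 genes, against 49.1% of all genes.

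Across the muscle genes, alpelisib against vehicle gave changes of -2.41 ± 1.73 for *Actn3*, -2.00 ± 2.05 for *Ckm*, -1.91 ± 2.11 for *Myh4* and -0.29 ± 0.66 for *Acta1*. Vehicle 1 and alpelisib 1 were the high libraries of their groups, and without vehicle 1 these changes were -1.06, -0.41, -0.17 and 0.22. Of the further fast muscle list, 23 of 23 genes had a negative change and 0 passed, with a median of -1.38 beside 0.01 for all genes. The list's summed level was 120.6 to 2435.6 in alpelisib tumours, and 9816.2 in vehicle 1 beside 158.5 to 1796.0 in the other vehicle tumours. Of 15 tested white fat genes 10 had a negative change and 0 passed, with a median of -0.61. Scaling to total reads without *Rn45s* and *Lars2* shifted the median change of all genes to -0.19 here, to -0.30 for combination against vehicle and to -0.19 for combination against nintedanib.

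Combination against vehicle resembled the alpelisib comparison in the sign of the fat genes, and the comparisons share the vehicle libraries. *Adipoq* averaged 4.77 ± 6.64 in combination tumours and 22.8 ± 19.8 in vehicle tumours, a change of -2.01 ± 1.18 (limma adjusted p 0.415). *Cfd* changed by -2.59 ± 1.54 and *Cidec* by -1.84 ± 1.21 (adjusted p 0.419 and 0.47). Without vehicle 3 the 3 changes were -3.22, -4.32 and -3.01. In *Cfd* and *Cidec*, combination 2 lay above vehicle 1 as well as vehicle 3. In *Adipoq* it lay above vehicle 3 alone, which had 0 reads. Of the 8 genes 0 passed, against 0.778% of all genes. At an unadjusted p under 0.05 limma called 0 of the 8, against 16.5% of all genes, and edgeR called 2. The limma count was 3 without vehicle 3 and 3 without combination 2. *Myh4* changed by -2.15 ± 2.11 and *Ckm* by -1.07 ± 2.05, and without vehicle 1 these were -0.41 and 0.53.

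Nintedanib against vehicle left all 8 genes overlapping, with changes of -1.33 to 1.25. *Adipoq* averaged 113.1 ± 141.1 in nintedanib tumours and 22.8 ± 19.8 in vehicle tumours, a change of 1.08 ± 1.12 (limma adjusted p 0.707). Without vehicle 3 the changes of *Adipoq*, *Cfd* and *Cidec* turned to -0.13, -0.47 and -0.33. *Ckm* changed by -1.03 ± 1.95 (adjusted p 0.837), and without vehicle 1 it turned to 0.57. Of the 8 genes 0 passed, against 0.152% of all genes, and 0 had an unadjusted p under 0.05 by limma or edgeR, against 8.47% of all genes. The limma count was 2 without non-responder 1. Here too *Adipoq* reached the minimum mean only through the nintedanib libraries (9.28 without them).

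Combination against alpelisib compared groups that were both low in fat genes except for combination 2. Its fat sum of 133.8 lay above the 104.8 of vehicle 1. *Adipoq* averaged 4.77 ± 6.64 in combination tumours and 0.295 ± 0.59 in alpelisib tumours, a change of 1.34 ± 1.18 (limma adjusted p 0.94). *Ckm* averaged 134.0 ± 249.9 in combination tumours and 28.9 ± 43.4 in alpelisib tumours, a change of 0.93 ± 2.05 (adjusted p 0.978). Combination 2 carried both, and without it the changes were 0.58 for *Adipoq* and -0.52 for *Ckm*. Of the 8 genes 0 passed, against 0.00845% of all genes, which is 1 gene. At an unadjusted p under 0.05, 0 of the 8 were called by limma or edgeR, against 6.18% of all genes.

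**Figure D5:**
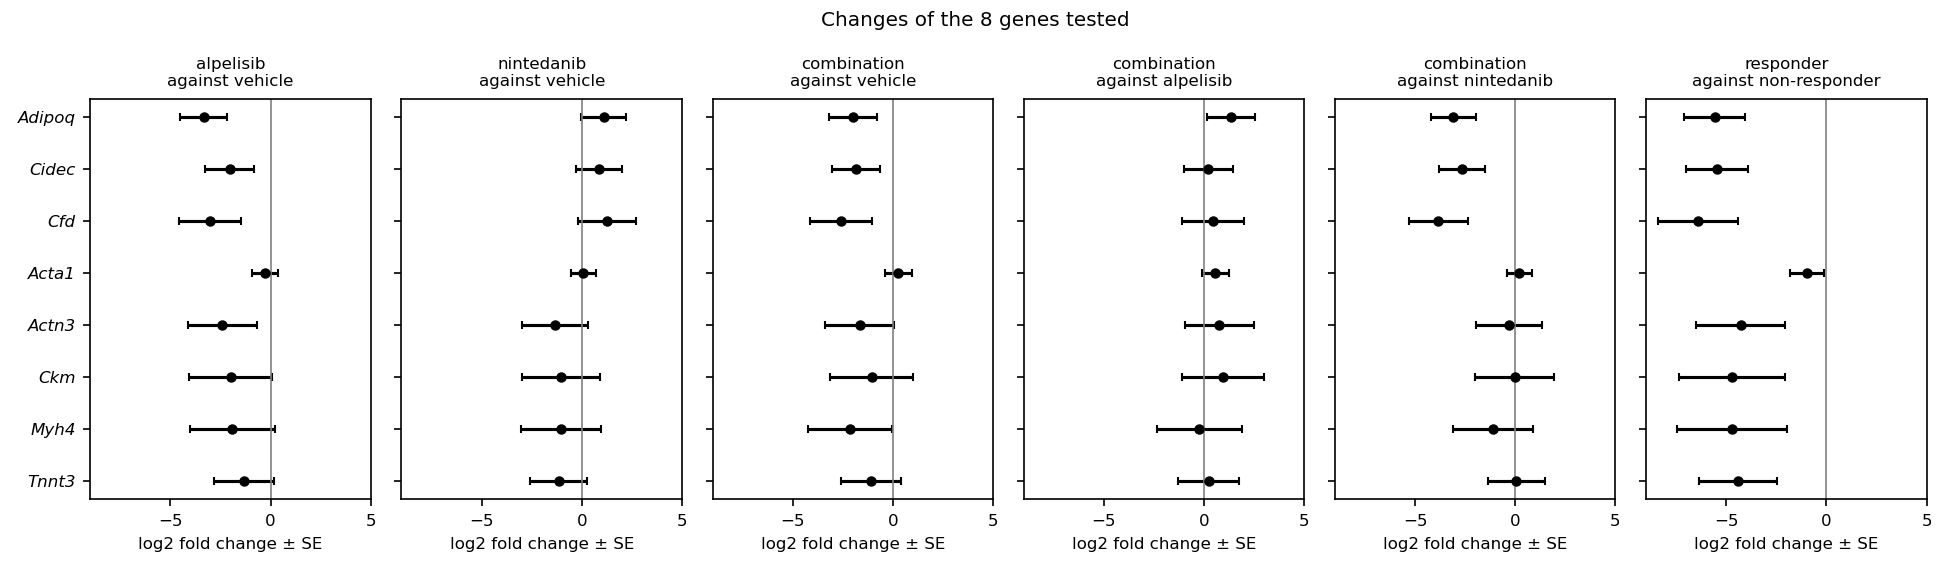
Log2 fold change (points) ± SE (bars) of the 8 genes tested in 6 comparisons, from limma on log2(normalized count + 1), with 0 marked by a line. The fat genes *Adipoq*, *Cidec* and *Cfd* lie furthest below 0 in responders against non-responders (-5.47 to -6.42). The bars of *Ckm* and *Myh4* are the widest, with an SE of 1.95 to 2.73.

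Lists of other tissues were set beside these genes. In responders against non-responders, 15 of 15 white fat genes tested had a negative change (median -1.18) and 23 of 23 fast muscle genes did (median -3.50), with 0 passing in either list. Over all genes tested, 54% had a negative change, with a median of -0.03. *Plin4* and *Retn* of the first list and *Ampd1* of the second reached the minimum mean only through the non-responders, so these counts are in part fixed by the filter. Summed over the fast muscle list, the responders had 187.6, 99.8 and 251.1 normalized counts and the non-responders 31780.8 and 172.9, and non-responder 2 thus lay within the range of the responders. Slow muscle genes had a median of -0.57 over 5 tested, smooth muscle genes -0.03 over 8, fibroblast genes 0.76 over 10 and endothelial genes 0.35 over 8, again with 0 passing. The 6 genes of fatty acid synthesis, a pathway of fat and of many other cells, had a median of -0.09 and 0 passing. The remaining medians were 0.43 for brown fat over 2 tested, -0.91 for satellite cell and regenerating muscle genes over 4, 0.25 for skin over 12, 1.27 for peripheral nerve over 4 and -0.36 for ribosomal protein genes over 8, with 0 passing in each.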

How the data were processed

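RNA of 17 tumours was sequenced as 75-bp paired-end reads, with polyA RNA and a TruSeq v2 kit, per the labels' protocols. Per the submitters' processing notes, Bowtie, TopHat and DESeq2 were used with the builds hg19 and mm10, and the series text says that reads were mapped to each genome separately. The counter, annotation and strand setting are not stated in these sources. The values the authors deposited are normalized counts per gene, a signal made by dividing reads by a size factor per library, and the genes carry symbols only. Dividing each mouse column by its step gave whole reads within 0.001, and DESeq2 factors of these reads equalled the deposited scaling. No column of another sample was used.

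The mouse values were used as deposited. Genes with a mean of at least 10 (11831, with 11506 below it) were tested with limma 3.58.1 (limma-trend, R 4.3.3) on log2(value + 1), with 1 mean for each of 5 groups, 6 contrasts and a Benjamini-Hochberg adjusted p under 0.05 over all tested genes. The nintedanib mean weighted its 5 libraries equally. Means are given ± SD of normalized counts. Alternatives were TMM scaling, scaling to total reads without *Rn45s* and *Lars2*, pseudocounts of 0.5 and 5, no filter, a minimum of 50, edgeR 4.0.16 and DESeq2 1.42.0 on the recovered reads, the replicate number as a block, and leaving out each library. The fits were tested on simulated data with the same setting of spread for all genes. That test does not show how the fits behave for genes as variable as these.

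Shares of reads have exact Clopper-Pearson intervals of 95% (scipy 1.17.1). Likeness is Pearson's r of log2(value + 1) over 17 libraries, among genes with a mean of at least 10, without the 10 genes themselves and unnamed gene models. The other genes named are the 5 most like *Adipoq* and the 5 most like *Ckm*, up to 4 per list with the highest mean, human counterparts of these genes, the cytoplasmic actin, and those said to be picked out afterwards. The 12 lists of 130 genes, of which 1 (*Ncmap*) was not measured, cover white fat, brown fat, fatty acid synthesis, fast and slow muscle, satellite cells and regenerating muscle, smooth muscle, fibroblasts, skin, peripheral nerve, endothelium and ribosomal proteins. The 10 genes, the lists and the naming rule were chosen with earlier results of these data known. No 2 libraries of a group were copies: the lowest chi-square per gene was 14.8 over 22 pairs. Groups follow the sample titles.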

Additional observations from a re-analysis of the deposited data

Results flagged for a closer look

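Within the 4 libraries of each of the combination, alpelisib and vehicle groups, and within the 5 nintedanib libraries, the highest or lowest library was set against the rest on the log2 scale. The measure is its gap to the nearest other library divided by the whole range, and a library stood apart above Dixon's critical value of 0.829 for 4 libraries or 0.71 for 5. Of 40 groups examined 13 had such a library, and chance alone gives about 1 in 20. The genes of a tissue share their high libraries, so these groups are not independent.

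In the muscle genes every library that stood apart was high. Nintedanib non-responder 1 stood apart in *Acta1* (0.721, with 7837.6 normalized counts against 741.3 to 1433.1 in the other 4), *Actn3* (0.868, 2261.6 against 2.03 to 6.24), *Ckm* (0.829, 5726.9 against 2.87 to 12.5) and *Tnnt3* (0.831, 5290.2 against 7.46 to 24.2). Combination 2 stood apart in *Actn3* (0.87, 172.0 against 3.69 to 6.5) and *Tnnt3* (0.898, 751.3 against 17.7 to 26.2). Alpelisib 1 stood apart in *Tnnt3* (0.976, 263.0 against 24.5 to 25.9), and vehicle 1 in *Acta1* (0.907, 4407.8 against 1006.4 to 1155.4).

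In the fat genes the measure was 1.0 where 1 library had reads and the other 3 had 0, an arrangement that always gives 1.0. These were *Adipoq* in alpelisib 3 (1.18 normalized counts), *Plin1* in combination 2 (1.01) and alpelisib 4 (1.62), and *Lep* in combination 2 (4.02) and alpelisib 2 (0.874). They rest on 1 to 4 reads each.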

How the results depend on the processing

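Beside the settings of the report, 9 alternatives were run, and each of the 17 libraries was left out in turn. No alternative called any of the 8 genes, and the lowest adjusted p under any of them was 0.0994 (*Cfd*, alpelisib against vehicle, DESeq2). DESeq2 gave no adjusted p for 6 genes in alpelisib against vehicle and for 4 in each other comparison. Of the changes under the 9 alternatives, 406 kept their direction and 14 turned.

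Scaling to total reads without *Rn45s* and *Lars2* turned *Acta1* to -0.020 for nintedanib against vehicle, -0.023 for combination against vehicle and -0.0026 for combination against nintedanib, and *Tnnt3* to -0.13 in the last, where a pseudocount of 5 gave -0.031. For combination against alpelisib, *Myh4* turned to 0.39 with edgeR and 0.07 (0.066) with DESeq2. For combination against nintedanib, *Actn3* turned to 0.18 with edgeR and 0.15 with DESeq2, and *Ckm* to 0.85 (0.845) and 0.80. The cause was not tested.

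Replicate numbers did not pair the samples: 5 of 29 same-number pairs of libraries correlated above 0.1, against 30 of 85 with different numbers. With the replicate number as a block, 0 of the 8 genes were called, *Acta1* turned to -0.21 for nintedanib against vehicle, and *Actn3* and *Ckm* turned to 0.16 and 0.35 for combination against nintedanib. The block gave 10 genes past the threshold of all tested for nintedanib against vehicle, 46 for combination against vehicle and 0 for combination against alpelisib.

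Counts of all genes past the threshold moved more. Alpelisib against vehicle had 0, against 7 scaled to total reads without *Rn45s* and *Lars2*, and 88 with DESeq2. Nintedanib against vehicle had 18, against 10 with no filter, 7 with a minimum mean of 50 and 93 with DESeq2. Combination against vehicle had 92 (47 higher, 45 lower), against 305 (36 higher, 269 lower) scaled to total reads without *Rn45s* and *Lars2*. It had 47 with no filter, 60 with the minimum of 50 and 478 with DESeq2. Combination against alpelisib had 1, against 0 with the minimum of 50, 0 with edgeR and 21 with DESeq2. Combination against nintedanib had 0, against 1 with no filter and 30 with DESeq2. Responders against non-responders had 0, against 2 with DESeq2. Leaving out 1 library gave 0 to 1 for alpelisib against vehicle, 0 to 13 for combination against alpelisib, 0 to 4 for combination against nintedanib, 5 to 130 for combination against vehicle, 4 to 33 for nintedanib against vehicle.

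Leaving out 1 library turned the direction of 46 changes. For alpelisib against vehicle the ranges were *Acta1* -0.74 to 0.22. For nintedanib against vehicle the ranges were *Acta1* -0.50 to 0.58, *Actn3* -3.09 to 0.025, *Adipoq* -0.13 to 2.26, *Cfd* -0.47 to 2.67, *Cidec* -0.33 to 1.74, *Ckm* -2.98 to 0.57 and *Myh4* -3.23 to 0.71. For combination against vehicle the ranges were *Acta1* -0.0062 to 0.78 and *Ckm* -2.97 to 0.53. For combination against alpelisib the ranges were *Actn3* -0.46 to 1.98, *Cfd* -0.90 to 1.28, *Cidec* -0.75 to 0.77, *Ckm* -0.52 to 1.88, *Myh4* -1.24 to 0.60 and *Tnnt3* -1.04 to 1.06. For combination against nintedanib the ranges were *Acta1* -0.085 to 0.77, *Actn3* -1.54 to 1.43, *Ckm* -1.49 to 1.91, *Myh4* -2.12 to 1.08 and *Tnnt3* -1.21 to 1.72. For responder against non-responder the ranges were *Acta1* -2.68 to 0.72, *Actn3* -8.74 to 0.19, *Ckm* -9.69 to 0.25 and *Myh4* -10.72 to 1.30. Where an arm was left with 1 tumour, that tumour was assumed to vary like the other groups.

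Depth limits the low end: in vehicle 3 0 reads of a gene allow up to 6.89 normalized counts, and *Adipoq* lay below that in all alpelisib libraries and in 3 of 4 combination libraries.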
